A study of Homo sapiens with 12 samples.

Results

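The cells were 143B, a human osteosarcoma line in wide laboratory use, and the response described here is that of the 3 libraries titled M-BSG-Hot set against the 3 titled NC, 6 of the 12 RNA-seq libraries of the series. The members were chosen by these titles, and all 15407 genes that passed a filter on low counts were tested. M-BSG-Hot is also titled 5-MNP-BSG (+), and NC is also titled Control. The other 6 libraries, 3 titled M-BSG (5-MNP-BSG) and 3 titled BSG, share the fit, the count filter and the marker check, and are otherwise used to show where M-BSG-Hot differed from them. All groups share the cell line, the genotype label WT and culture in DMEM with fetal bovine serum. Every sample, controls included, carries the same treatment text, which mentions the magnetothermal glass system and a field that alternates. The labels therefore do not state which material, field, dose or exposure time each group received, whether heat was reached, or whether NC was left untreated. Whether replicate libraries stem from separate cultures is not said, so p-values measure only the spread between these libraries, which may be technical. In bulk RNA, fewer cells of a type and less RNA per cell cannot be told apart.

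Magnetic hyperthermia heats a magnetic material with an alternating field. Cells that meet heat or damaged proteins are known to activate HSF1, a transcription factor that switches on chaperone genes through heat shock elements in their promoters. Many stimuli, among them growth factors and stress, act through ERK and p38 kinases on immediate-early genes such as FOS and EGR1, whose transcripts appear quickly and are short-lived.

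Total counts were 36881759, 37158430 and 38163152 in M-BSG-Hot and 34434993, 36790336 and 36680546 in NC. Where no read was counted, as many as 3 counts remain possible, or 0.0779 to 0.0851 CPM (counts per 1e+06 counts) in these 6 libraries, a limit for counting error only. The M-BSG-Hot libraries were less alike than the NC libraries: pairwise chi-square values over their degrees of freedom ran from 15.4 to 40.4 in M-BSG-Hot, with replicates 1 and 3 farthest apart, and from 3.37 to 9.91 in NC. Cell identity was checked on FPKM, which is scaled for gene length and library total. Over all 12 libraries the mesenchymal gene VIM lay between 1672 and 2045 FPKM and the osteoblast regulator RUNX2 between 1.67 and 2.88, while COL1A1 reached no more than 1.56 FPKM. The osteoblast factor SP7 had no count in 8 libraries and the mesenchymal marker THY1 none in 11. Of the markers of other cells, the epithelial gene EPCAM was present at 9.18 to 13.4 FPKM and CD68 at 69.97 to 93.6, whereas CDH1 reached at most 0.0357 and CSF1R at most 0.0639. None of the markers tested for mesenchymal, osteoblast, epithelial, immune, endothelial or fat cells was called different between M-BSG-Hot and NC by edgeR, and PECAM1 came nearest with an adjusted p of 0.0927. The only muscle marker that passed the filter, ACTA1, was higher in M-BSG-Hot, at 1.57 CPM on average against 0.0441 CPM in NC, while DES was too low to test.

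In all, 756 genes (4.91% of those tested) differed between M-BSG-Hot and NC at an adjusted p under 0.05 (edgeR quasi-likelihood fit, Benjamini-Hochberg), 215 higher (1.4%) and 541 lower (3.51%). At least 2-fold, 89 rose (0.578%) and 212 fell (1.38%). Among genes of at least 5 CPM in the higher group, RASD1, FOS and ID2 rose most, and MIR17HG and NEAT1, both long non-coding RNAs, fell most. Values below are CPM with TMM scaling unless another unit is given, and log2 fold changes are M-BSG-Hot over NC with an approximate standard error (SE). The counts fell without any 1 of the 6 compared libraries. Without NC 1, NC 2, NC 3, M-BSG-Hot 1, M-BSG-Hot 2 or M-BSG-Hot 3 the number higher was 126, 103, 115, 173, 158 and 135. In the same order the number lower was 341, 285, 308, 327, 371 and 331. Each such fit leaves fewer libraries in a group, so a lost call, here or below, need not be tied to the library left out. Without a BSG or M-BSG library, which only share the fit, 173 to 304 were higher and 466 to 654 lower, and with the 6 compared libraries alone 249 and 718. With the trend of each library on gene length removed, 786 genes were higher and 626 lower. Then 55.7% of called genes were higher, against 28.4% without that step. With library size as the only scaling 149 were higher and 673 lower, 18.1% higher. Both steps moved the median log2 fold change over all genes. It was 0.066 with the length trend removed, -0.065 with library size only and 0.002 before these changes. A count by direction depends on where this centre lies.

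**Figure D1:**
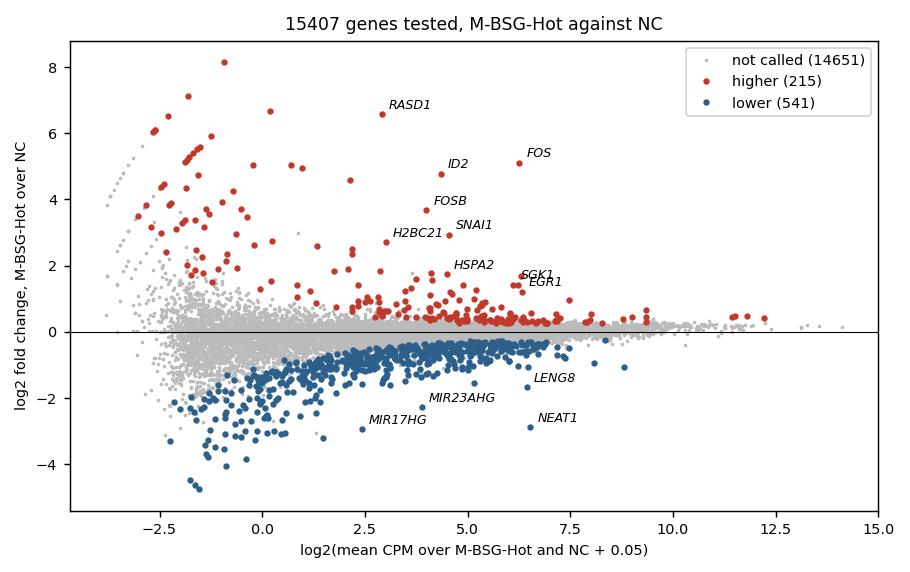
Log2 fold change of M-BSG-Hot over NC (vertical axis) against mean level (horizontal axis, log2 of mean CPM plus a small constant) for the 15407 genes tested; red points are the 215 genes called higher, blue points the 541 called lower and grey points the rest. FOS, RASD1 and ID2 stand at the top among well expressed genes, and NEAT1, MIR23AHG and MIR17HG at the bottom.

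RASD1, a Ras-related GTPase first known as induced by dexamethasone, had 11.4, 15.3 and 17.6 CPM in M-BSG-Hot and 0.255, 0.130 and 0.0789 CPM in NC. FOS, which pairs with JUN proteins to form AP-1, had 109, 162 and 175 CPM in M-BSG-Hot against 4.96, 4.28 and 3.73 CPM in NC. The AP-1 subunit FOSB had 16.3, 39.4 and 32.7 CPM in M-BSG-Hot and 2.24, 2.78 and 1.87 CPM in NC. For all 3 genes every M-BSG-Hot library lay far above every NC library, and M-BSG-Hot 1 was the lowest of its group. The log2 fold changes were 6.57 for RASD1 (SE 0.30, edgeR adjusted p = 1.54e-08), 5.11 for FOS (SE 0.18, adjusted p = 1.6e-09) and 3.68 for FOSB (SE 0.28, adjusted p = 2.56e-06). ID2, an inhibitor of basic helix-loop-helix factors and a target of BMP signalling, had 40.1, 33.7 and 43.4 CPM in M-BSG-Hot against 1.47, 1.71 and 1.08 CPM in NC, a log2 fold change of 4.78 (SE 0.19, edgeR adjusted p = 3.75e-09). SNAI1, a zinc finger repressor of E-cadherin, had 32.6, 44.6 and 46.2 CPM in M-BSG-Hot and 6.27, 4.39 and 5.50 CPM in NC, which gave a log2 fold change of 2.93 (SE 0.15, edgeR adjusted p = 4.36e-08). Both genes were separated from NC in all 3 libraries.

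The highest genes also held H2BC21, a histone H2B gene, LSMEM1, the zinc finger factor EGR2, the orphan receptor GPR50, the nuclear receptor NR4A2, OVGP1, RGS2, which restrains G protein signalling, and HSPA2, a member of the HSP70 chaperone family. Their log2 fold changes ran from 2.71 for H2BC21 to 1.75 for HSPA2. EGR2 was uneven, with 3.51, 10.5 and 8.72 CPM in M-BSG-Hot against 1.73, 1.58 and 1.10 CPM in NC, but the groups did not overlap. RGS2 was even, with 23.1, 29.1 and 27.5 CPM in M-BSG-Hot and 7.15, 8.08 and 7.94 CPM in NC. Non-overlap alone is common here, since it held for 28% of all genes tested, 13.5% with M-BSG-Hot higher and 14.5% with it lower.

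**Figure D2:**
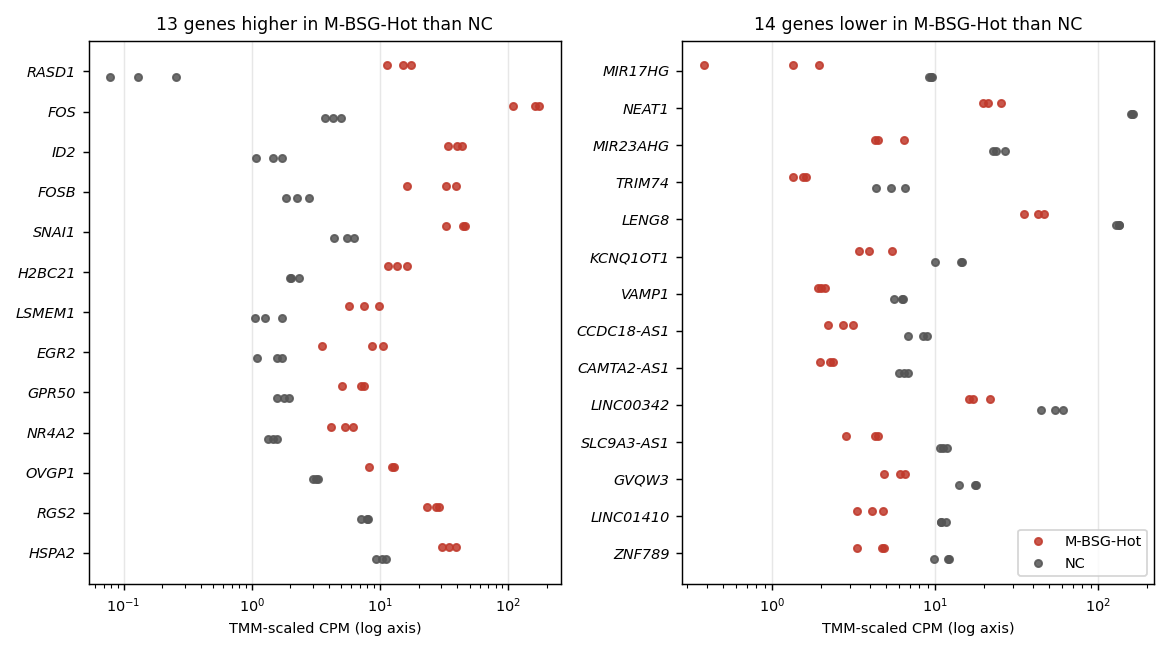
TMM-scaled CPM (log axis) of 13 of the 14 genes with the highest and the 14 with the lowest log2 fold change among called genes with at least 5 CPM in the higher group; each point is 1 library, red for M-BSG-Hot and grey for NC. In every row the 3 red points are separate from the 3 grey points, and MIR17HG has the widest spread of red points among the lower genes.

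Immediate-early genes made up the clearest group. Of 36 tested, 17 were higher and the other 19 did not pass, against 1.4% of all genes, and the median log2 fold change of the list was 0.35 beside 0.00 over all genes. EGR1, a zinc finger factor of this class, had 67.7, 136 and 130 CPM in M-BSG-Hot against 48.5, 48.2 and 47.3 CPM in NC, a log2 fold change of 1.21 (SE 0.20, edgeR adjusted p = 0.00251). SGK1, a kinase that regulates ion channels, had 104, 91.9 and 106 CPM in M-BSG-Hot and 34.4, 39.5 and 38.4 CPM in NC, a difference of 1.43 on the log2 scale (SE 0.08, adjusted p = 1.34e-07). SGK1 was among the most even genes, whereas EGR1 was about as high in M-BSG-Hot 2 as in M-BSG-Hot 3 and lower in M-BSG-Hot 1. The growth regulator MYC had 45.1, 48.0 and 56.2 CPM in M-BSG-Hot against 30.7, 27.6 and 27.7 CPM in NC (log2 fold change 0.80). KLF4, IER3, CSRNP1 and the mRNA-decay factor ZFP36 rose by 0.99, 0.96, 0.90 and 1.06 on the log2 scale. JUNB rose by 0.82, but without NC 2 its adjusted p was 0.0554. RASD1 and SGK1 also stand in the list of glucocorticoid-induced genes, of which 4 of 15 were higher; the other 2 were NFKBIA and DUSP1.

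The EGR1 promoter is shown because the serum response factor is known to act on immediate-early genes through CArG boxes (CC, 6 A or T, GG), searched on both strands. The capitals mark the boxes in the 250 bases before the RefSeq gene start (RefSeq, GRCh38.p14), of which EGR1 holds 2. A CArG box was found in 1.14% of 27305 promoter windows of this length, and of 13 higher immediate-early genes with a window it was found in 1.
EGR1 upstream window, chr5:138465229-138465478, plus strand: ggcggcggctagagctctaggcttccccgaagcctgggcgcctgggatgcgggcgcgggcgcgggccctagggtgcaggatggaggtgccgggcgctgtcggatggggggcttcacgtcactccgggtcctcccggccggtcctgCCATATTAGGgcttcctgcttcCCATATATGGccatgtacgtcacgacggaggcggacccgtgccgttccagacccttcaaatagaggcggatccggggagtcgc
A match is only a run of letters, and nothing here measured binding.

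In the list named for ERK feedback and ligands, 6 of 26 genes were higher, while the share over all genes tested was 1.4%. The list is mixed, and ERK activity was not measured. HBEGF, a ligand of the EGF receptor, had 25.8, 38 and 36.2 CPM in M-BSG-Hot and 15.2, 13.4 and 15 CPM in NC, a log2 fold change of 1.20 (SE 0.12, edgeR adjusted p = 4.98e-05). RGS16 rose by 1.32, the phosphatase DUSP10 by 0.76 and the ERK inhibitor SPRY2 by 0.39 on the log2 scale. DUSP1 rose by 0.40, but its adjusted p was 0.063, 0.153, 0.129, 0.0696 and 0.117 without NC 1, NC 2, NC 3, M-BSG-Hot 2 or M-BSG-Hot 3. Among genes of NF-kB and inflammation, 6 of 32 were higher, and 3 without NC 2 (4 without NC 1). NFKBIA, the inhibitor that NF-kB itself induces, had 43.3, 53.5 and 58.0 CPM in M-BSG-Hot against 23.7, 19.9 and 21 CPM in NC, a difference of 1.26 on the log2 scale (SE 0.11, adjusted p = 1.3e-05). Its relative NFKBIZ rose by 1.23, and the chemokine CXCL1 by 1.54, at 1.28, 1.77 and 1.87 CPM in M-BSG-Hot and 0.454, 0.571 and 0.657 CPM in NC. PTGS2, the inducible cyclooxygenase, rose by 1.04, and without NC 2 its adjusted p was 0.0666. The neutrophil chemokine CXCL8 rose by 0.94, and its adjusted p was 0.0864, 0.0681 and 0.0749 without NC 1, NC 2 or M-BSG-Hot 1. TNF had 7, 3 and 15 counts in M-BSG-Hot and no count in the 3 NC libraries, at least 8.4-fold higher against 3 counts over the NC group. Its adjusted p was 0.0644, 0.077, 0.0741 and 0.079 without NC 1, NC 2, NC 3 or M-BSG-Hot 3.

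Heat shock chaperones moved less. Of 36 tested, 6 were higher and 30 did not pass, while 1.4% of all genes were higher. The median log2 fold change of the list was 0.11. With library size only it was 0.043, where the median over all genes was -0.065. The inducible HSP70 gene HSPA1A had 19.8, 23.3 and 26.5 CPM in M-BSG-Hot against 11.6, 9.27 and 11.1 CPM in NC, and HSPA1B had 23.4, 27.6 and 34.4 CPM in M-BSG-Hot against 16.7, 15.3 and 12.9 CPM in NC. The log2 fold changes were 1.13 (SE 0.12, edgeR adjusted p = 7.45e-05) and 0.93 (SE 0.13, adjusted p = 0.000749). These genes are near-identical copies that share reads, so the split between them is uncertain. HSPA2 had 30.3, 34.6 and 38.9 CPM in M-BSG-Hot and 10.3, 11.2 and 9.39 CPM in NC. The HSP40 gene DNAJB1 had 97.7, 105 and 114 CPM in M-BSG-Hot and 90.5, 83.7 and 80.7 CPM in NC, a log2 fold change of 0.31 with an adjusted p of 0.0328. Its call ended without NC 2, NC 3, M-BSG-Hot 2 or M-BSG-Hot 3 (adjusted p = 0.143, 0.173, 0.0694 and 0.113), and the list held 3 higher genes without any 1 of these 4 libraries. HSPA14 at 0.37 and DNAJA1 at 0.26 lost their calls without any 1 of the 6 libraries, with adjusted p between 0.0692 and 0.179. Classical heat markers that did not pass were HSPH1 (0.10), HSP90AA1 (0.07), HSPB1 (0.17) and the co-chaperone BAG3 (0.21). HSPA6, a strictly inducible HSP70 gene, had 5, 5 and 13 counts in M-BSG-Hot and 6, 7 and 2 counts in NC, where the groups overlap.

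The upstream windows of HSPA1A and HSPA1B are shown because both genes rose and both hold a heat shock element, GAANNTTC, in capitals (both strands searched, 250 bases before the RefSeq start, GRCh38.p14). The element was found in 12 of 34 windows of the heat shock list, in 3 of 5 windows of its higher genes and in 5.85% of all 27305 windows. Those 3 are HSPA1A, HSPA1B and DNAJA1, and the HSPA1A and HSPA1B windows are alike. Genes of the list that were not called hold it too, among them HSPA6, HSPA8, CHORDC1 and HSPB1. Since the windows shown were picked for a rise and a match, they are no test of the element, and binding was not measured.
HSPA1A upstream window, chr6:31815293-31815542, plus strand: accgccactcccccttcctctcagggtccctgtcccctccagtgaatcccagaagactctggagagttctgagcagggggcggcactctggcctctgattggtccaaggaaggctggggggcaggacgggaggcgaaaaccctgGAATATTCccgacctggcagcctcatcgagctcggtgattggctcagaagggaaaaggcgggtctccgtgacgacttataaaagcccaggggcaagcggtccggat
HSPA1B upstream window, chr6:31827488-31827737, plus strand: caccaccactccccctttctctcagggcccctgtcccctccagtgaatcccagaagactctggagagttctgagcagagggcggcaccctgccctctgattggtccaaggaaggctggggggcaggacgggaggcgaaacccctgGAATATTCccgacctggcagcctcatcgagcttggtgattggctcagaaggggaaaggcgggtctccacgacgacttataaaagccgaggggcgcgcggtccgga

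**Figure D3:**
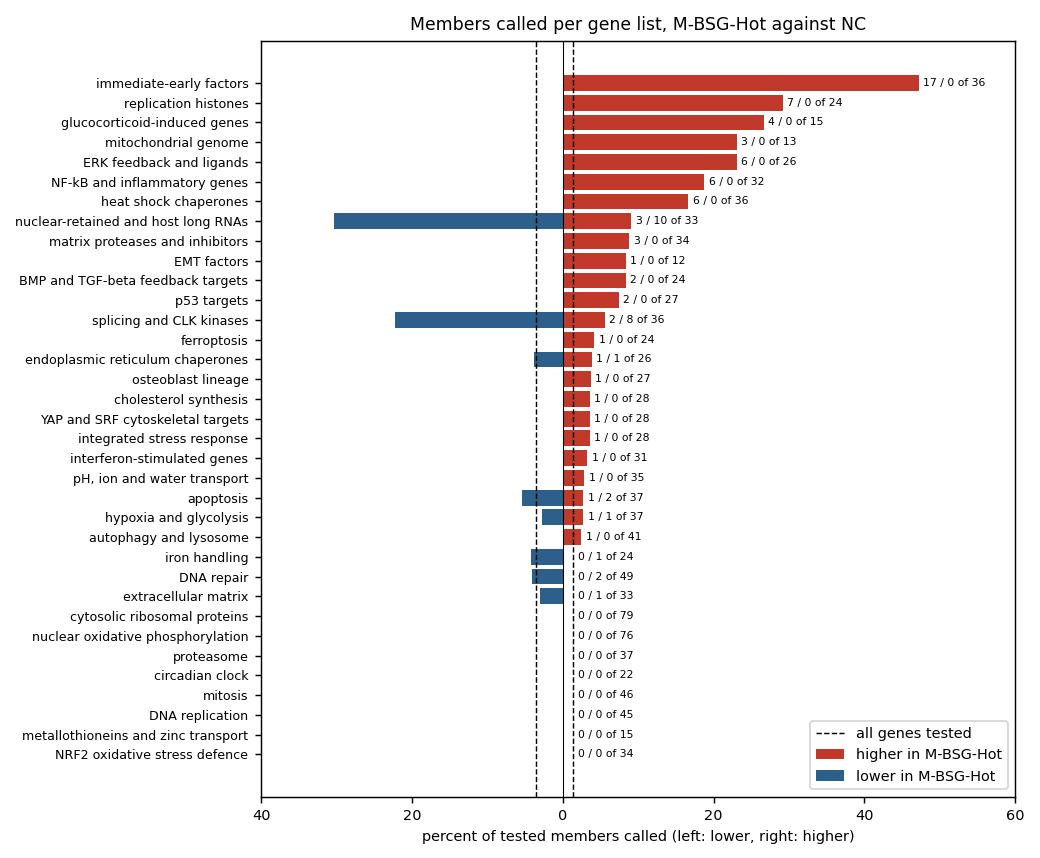
Percent of tested members called lower (left, blue) or higher (right, red) in M-BSG-Hot against NC for 35 gene lists; dashed lines mark all genes tested, 1.4% higher and 3.51% lower, and the numbers give higher / lower of tested. Immediate-early factors reach farthest to the right with 17 of 36, while long RNAs and splicing genes reach farthest to the left with 10 of 33 and 8 of 36.

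Other stress programmes were smaller. For scale, 1.4% of all genes tested were higher and 3.51% lower at an adjusted p under 0.05. The share of all genes at an unadjusted p under 0.05 is not given. List counts at that threshold, here and below, therefore cannot be set against it. In the endoplasmic reticulum list, 1 of 26 genes was higher, the chaperone HSPA5 at 0.30 log2, whose adjusted p of 0.0216 became 0.0846, 0.0855, 0.0945 and 0.0765 without NC 1, NC 2, NC 3 or M-BSG-Hot 3. DERL3, a factor of protein export from that organelle for degradation, was lower, with 0.625, 0.993 and 1.11 CPM in M-BSG-Hot against 2.27, 2.03 and 1.68 CPM in NC (log2 fold change -1.13), and its adjusted p of 0.0283 became 0.114, 0.101, 0.0509, 0.111 and 0.0696 without NC 1, NC 2, NC 3, M-BSG-Hot 1 or M-BSG-Hot 2. Of 28 genes of the integrated stress response, ATF3 alone was higher, with 10.4, 17.5 and 15.9 CPM in M-BSG-Hot against 6.86, 7.76 and 8.41 CPM in NC (log2 fold change 0.93, edgeR adjusted p = 0.00378). DDIT3 was at -0.55 with an adjusted p of 0.189. Of 34 genes of NRF2 defence against oxidants, no gene was called by edgeR (3 higher and 2 lower at an unadjusted p under 0.05; DESeq2 called 1 lower), and HMOX1, the heme oxygenase, had 10.3, 11.1 and 10.7 CPM in M-BSG-Hot against 9.39, 8.13 and 8.97 CPM in NC. Among iron genes, 1 of 24 was called, the mitochondrial iron importer SLC25A37, with 107, 116 and 108 CPM in M-BSG-Hot against 179, 183 and 178 CPM in NC, a difference of -0.70 on the log2 scale (SE 0.08, adjusted p = 7.79e-05). The iron store FTH1 was at 0.11 and the transferrin receptor TFRC at 0.05, with adjusted p of 0.703 and 0.913. Metallothioneins and zinc transporters gave no call among 15 by edgeR (2 higher at an unadjusted p under 0.05, none by DESeq2).

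In growth and death pathways the p53 list held 2 higher genes of 27, while 1.4% of all genes were higher and 3.51% lower. PLK2, a stress-induced kinase, had 113, 121 and 130 CPM in M-BSG-Hot and 38.2, 37.4 and 37.2 CPM in NC, a log2 fold change of 1.69 (SE 0.08, edgeR adjusted p = 1.84e-08). GADD45A, a growth arrest gene, rose by 0.56, while the cell cycle inhibitor CDKN1A was at 0.27 with an adjusted p of 0.177, which became 0.0368 without M-BSG-Hot 1. Of 37 apoptosis genes, the BH3 protein BMF was higher (0.45) and the survival genes BCL2L2 (-0.54) and CFLAR (-0.39) were lower. CFLAR lost its call without NC 2, NC 3, M-BSG-Hot 2 or M-BSG-Hot 3 (adjusted p = 0.125, 0.103, 0.123 and 0.112). Among 49 DNA repair genes XRCC2, a gene of homologous recombination, fell to 14.9, 16.6 and 11.0 CPM in M-BSG-Hot, against 28.8, 33.8 and 31.5 CPM in NC (log2 fold change -1.15, adjusted p = 0.000476). MRE11, a nuclease of double-strand break repair, fell by 0.33 on the log2 scale and lost its call without NC 2, NC 3, M-BSG-Hot 1 or M-BSG-Hot 3 (adjusted p = 0.136, 0.149, 0.123 and 0.107). Proliferation genes gave no call by edgeR. Of 45 replication genes 1 was higher and 4 lower at an unadjusted p under 0.05 with none called by DESeq2, and of 46 mitosis genes 2 were higher and 1 lower, with 1 called higher by DESeq2. MKI67 was at -0.27 (adjusted p = 0.476), with 482, 424 and 375 CPM in M-BSG-Hot and 470, 528 and 540 CPM in NC.

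Of the BMP and TGF-beta feedback list, ID2 and ID4 were higher among 24 tested, while 1.4% of all genes were higher. ID4 had 3.64, 5.37 and 3.72 CPM in M-BSG-Hot against 0.596, 0.675 and 0.815 CPM in NC, a log2 fold change of 2.60 (SE 0.20, edgeR adjusted p = 2.98e-06). Bone and matrix lists held few called genes. Of 33 extracellular matrix genes 1 was lower and none higher, while 3.51% of all genes were lower. ADAMTS1, a secreted metalloprotease, had 20.8, 20.1 and 19.7 CPM in M-BSG-Hot and 7.43, 7.14 and 5.50 CPM in NC, a difference of 1.60 on the log2 scale (SE 0.16, adjusted p = 5.41e-05). Of 34 proteases and inhibitors 3 were higher, and 1 without NC 1, NC 2, NC 3, M-BSG-Hot 1 or M-BSG-Hot 3. In the osteoblast list TNFRSF11B, the osteoclast inhibitor osteoprotegerin, was 1 of 27 called, at 0.39, and its adjusted p was 0.0885, 0.113, 0.0792 and 0.113 without NC 1, NC 2, NC 3 or M-BSG-Hot 1. RUNX2 was at -0.39 (adjusted p = 0.143), ALPL at -0.07, SPP1 at 0.26 and COL1A1 at -0.08, none of them called. CCN2, a YAP target, was the only higher gene of 28 in its list, with 674, 538 and 573 CPM in M-BSG-Hot against 445, 436 and 434 CPM in NC (log2 fold change 0.44, adjusted p = 0.00729). Of 37 hypoxia and glycolysis genes the vasodilator peptide gene ADM rose by 0.86 (adjusted p = 3.62e-05), and PDK1, a kinase that holds back pyruvate entry into mitochondria, fell by 0.47 (adjusted p = 0.0232). PDK1 lost its call without NC 2, NC 3, M-BSG-Hot 1 or M-BSG-Hot 3 (adjusted p = 0.0951, 0.109, 0.104 and 0.101). Among 28 cholesterol genes HMGCS1 rose by 0.46 (adjusted p = 0.0041).

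Histone genes stood out among the higher genes. Of 24 replication histone genes tested, 7 were higher, with a median log2 fold change of 0.45, while 1.4% of all genes were higher. Of all 37 histone symbols tested, 13 were higher (35.1%) and 1 lower, with a median of 0.71. H2BC21 had 11.6, 13.7 and 16.4 CPM in M-BSG-Hot against 2.01, 2.34 and 2.00 CPM in NC (log2 fold change 2.71, SE 0.20, edgeR adjusted p = 2.53e-06). The linker histone H1-5 had 41, 37 and 28 counts in M-BSG-Hot and no count in NC, at least 35.6-fold higher against 3 counts over the group. H1-4 had 53, 53 and 29 counts in M-BSG-Hot and 4, 6 and 0 in NC, and H3C2 had 11, 26 and 11 counts against 0, 0 and 1 in NC. H2BC12, at 56.6, 57.4 and 65.0 CPM in M-BSG-Hot and 46.6, 42.8 and 45.5 CPM in NC, rose by 0.41, and its adjusted p was 0.107, 0.0714 and 0.0831 without NC 2, NC 3 or M-BSG-Hot 3. H1-5, H1-4 and H3C2 rest on few counts, and histone genes are similar in sequence, so their counts may be split among copies. The replication histone list held 4 higher genes without M-BSG-Hot 3, and 2 with a minimum count of 50, which leaves the low genes out.

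Long non-coding RNAs were lower far more often than coding genes. Of 1691 lncRNAs tested 173 were lower (10.2%) and 11 higher, with a median log2 fold change of -0.31, while of 13436 protein-coding genes 344 were lower (2.56%) and 200 higher, with a median of 0.02. NEAT1, the scaffold RNA of paraspeckles, fell to 21, 25.2 and 19.8 CPM in M-BSG-Hot, against 159, 164 and 162 CPM in NC, a log2 fold change of -2.88 (SE 0.13, edgeR adjusted p = 1.54e-08). MALAT1, another nuclear RNA, had 71.3, 95.7 and 75 CPM in M-BSG-Hot and 118, 135 and 132 CPM in NC, a difference of -0.67 on the log2 scale (SE 0.11, adjusted p = 0.00179). The groups did not overlap for either gene. Besides LENG8, the genes among the 14 lowest that are no lncRNA by name are TRIM74, which has near-identical copies (-1.85), the synaptic vesicle gene VAMP1 (-1.59), GVQW3 (-1.49) and ZNF789 (-1.41). KCNQ1OT1, an imprinted antisense RNA, fell by 1.61 on the log2 scale. LINC00342, LINC01410, CCDC18-AS1, CAMTA2-AS1 and SLC9A3-AS1 had log2 fold changes from -1.59 for CCDC18-AS1 to -1.46 for LINC01410. Use of strand in the counting is not given in the sources used here, so reads of antisense and host transcripts cannot be told apart from those of overlapping genes. Called lower genes had a median length of 4767 bases against 2827 for higher genes and 3986 for all tested. Relative to the NC mean, the longest of 5 equal groups of genes had a median of -0.19 in M-BSG-Hot 3, -0.07 in M-BSG-Hot 2 and 0.01 in M-BSG-Hot 1, and the shortest 0.17, 0.06 and -0.02. More lncRNAs were lower than higher with the length trend removed as well, at 212 lower and 24 higher, and without NC 2, NC 3, M-BSG-Hot 1 or M-BSG-Hot 3, at 99, 109, 101 and 114 lower.

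**Figure D4:**
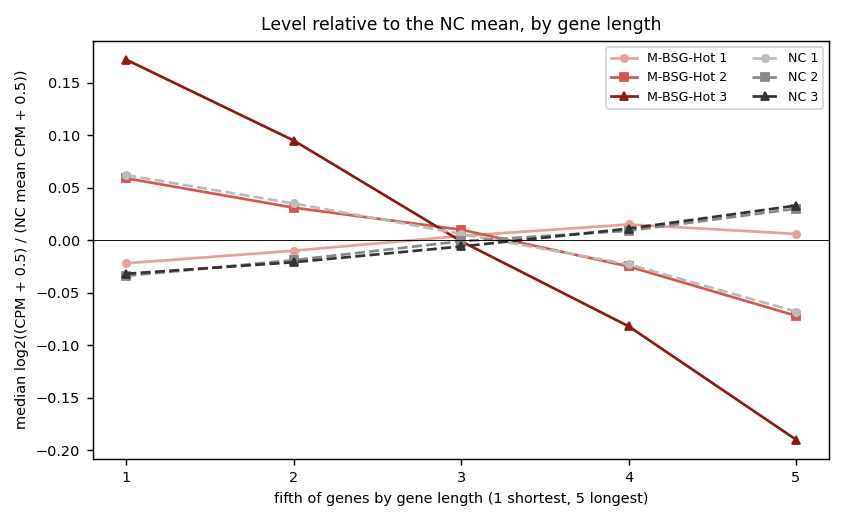
Median log2 ratio of each library to the NC mean (vertical axis, CPM plus 0.5) over 5 equal groups of genes by length (horizontal axis, shortest to longest), red for M-BSG-Hot and grey for NC. M-BSG-Hot 3 has the steepest slope, from 0.17 to -0.19, M-BSG-Hot 1 is nearly flat, and M-BSG-Hot 2 resembles NC 1.

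Several microRNA host genes fell. MIR17HG, host of the miR-17 cluster, had 0.381, 1.34 and 1.93 CPM in M-BSG-Hot and 9.62, 9.48 and 9.15 CPM in NC, a log2 fold change of -2.95 (SE 0.33, edgeR adjusted p = 9.42e-05). MIR23AHG had 4.29, 6.41 and 4.48 CPM in M-BSG-Hot against 26.9, 23.8 and 22.6 CPM in NC, a difference of -2.27 on the log2 scale (SE 0.16, adjusted p = 1.37e-06). MIR222HG had 6.20, 6.79 and 7.12 CPM in M-BSG-Hot and 18.8, 15.4 and 15.8 CPM in NC, a difference of -1.31 on the log2 scale (SE 0.16, adjusted p = 0.000229). Host levels say nothing of mature microRNAs, which these libraries did not measure. Of symbols ending in HG, 14 of 55 (25.5%) were lower and 2 higher. MIR22HG went the other way, with 30.1, 42.7 and 44.5 CPM in M-BSG-Hot against 25.5, 24.0 and 23.7 CPM in NC (log2 fold change 0.68, adjusted p = 0.00411).

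One arm of each hairpin in the 3 hosts is printed, 11 of 21 mature products, to show which of these arms share a target seed (bases 2 to 8, in capitals; RefSeq, GRCh38.p14). In the MIR17HG cluster miR-17-5p and miR-20a-5p share the seed AAAGUGC and miR-19a-3p and miR-19b-3p share GUGCAAA, and miR-221-3p and miR-222-3p of MIR222HG share GCUACAU.
hsa-miR-17-5p: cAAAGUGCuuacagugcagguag
hsa-miR-20a-5p: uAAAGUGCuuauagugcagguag
hsa-miR-18a-5p: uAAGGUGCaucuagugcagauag
hsa-miR-19a-3p: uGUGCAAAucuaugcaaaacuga
hsa-miR-19b-3p: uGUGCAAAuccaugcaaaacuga
hsa-miR-92a-3p: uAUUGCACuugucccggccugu
hsa-miR-23a-3p: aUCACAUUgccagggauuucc
hsa-miR-27a-3p: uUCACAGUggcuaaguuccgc
hsa-miR-24-3p: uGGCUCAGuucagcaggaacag
hsa-miR-221-3p: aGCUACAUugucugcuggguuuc
hsa-miR-222-3p: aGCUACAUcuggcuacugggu

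Splicing and transcription regulators split in direction. Of 36 tested, 8 were lower and 2 higher, while 3.51% of all genes were lower. LENG8 fell to 35.1, 42.8 and 46.4 CPM in M-BSG-Hot, against 135, 134 and 129 CPM in NC, a log2 fold change of -1.68 (SE 0.11, edgeR adjusted p = 5.52e-07). The RNA helicase DDX17 had 192, 190 and 176 CPM in M-BSG-Hot and 340, 363 and 362 CPM in NC, a difference of -0.93 on the log2 scale (SE 0.10, adjusted p = 7.45e-05). CCNL2, CLK1 and CLK4, a cyclin and kinases that phosphorylate or assist SR splicing proteins, fell by 0.80, 0.61 and 0.59 on the log2 scale. HEXIM1, which holds the elongation kinase P-TEFb inactive, rose by 1.41 (SE 0.09, adjusted p = 4.63e-07), at 100, 104 and 124 CPM in M-BSG-Hot against 43.4, 40.1 and 40.0 CPM in NC. SRSF6 rose by 0.35, and without NC 2 or NC 3 its adjusted p was 0.0603 and 0.0571. ZNF zinc finger genes, mostly repressors, were lower in 34 of 423 (8.04%) and higher in 3, with 18, 21 and 18 lower without NC 2, NC 3 or M-BSG-Hot 3.

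Most ribosomal protein and respiratory genes had small positive fold changes, and few passed the test. No gene of 79 cytosolic ribosomal proteins was called by edgeR, at an unadjusted p under 0.05 or by DESeq2, though 78 had a positive log2 fold change, with a median of 0.20. They took 7.67%, 8.83% and 9.92% of counts in M-BSG-Hot and 8.44%, 7.78% and 7.88% in NC, a difference of 0.777 percentage points (exact permutation test, two-sided p = 0.4, smallest possible 0.1). The 95% Wilson intervals reach at most 0.00949 points to either side. The share was highest in M-BSG-Hot 3 and lowest in M-BSG-Hot 1, and the list median was 0.10 without M-BSG-Hot 3. Of 76 nuclear genes of oxidative phosphorylation none was called by edgeR (2 higher at an unadjusted p under 0.05, none by DESeq2). Of these genes 71 had a positive log2 fold change, with a median of 0.16, which was 0.079 without M-BSG-Hot 3. With library size only the list median was 0.095, where the median over all genes was -0.065. The mitochondrial genome supplied 6.58%, 6.91% and 7.28% of counts in M-BSG-Hot and 6.75%, 5.98% and 6.22% in NC, a difference of 0.607 points (exact permutation test, two-sided p = 0.2). Its genes CYTB, ND1 and ND2, which encode respiratory chain subunits, rose by 0.42, 0.49 and 0.46 on the log2 scale, and no mitochondrial gene was called without NC 2, NC 3 or M-BSG-Hot 3 (adjusted p of CYTB 0.0898, 0.0788 and 0.0593). Of 37 proteasome genes none was called by edgeR (6 higher at an unadjusted p under 0.05, none by DESeq2), with a median of 0.16. As above, the counts at an unadjusted p have no share over all genes beside them.

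Against M-BSG and BSG, M-BSG-Hot differed in far fewer genes. Against M-BSG, 107 genes (0.694%) were called, 15 higher (0.0974%) and 92 lower (0.597%) in M-BSG-Hot. Against BSG, 131 genes (0.85%) were called, 15 higher (0.0974%) and 116 lower (0.753%) in M-BSG-Hot. Only 3 genes were higher and 7 lower against M-BSG when just those 6 libraries were fitted, and without any 1 library of the 2 groups the counts were 3 to 10 higher and 22 to 75 lower. Against BSG those 6 libraries alone gave 3 higher and 60 lower, and leaving out 1 library 1 to 5 higher and 49 to 92 lower. Of the genes named in these contrasts, 39 of 45 calls against M-BSG and 27 of 51 against BSG were lost with the 6 libraries alone. Replicates of both comparison groups were uneven. Pairwise chi-square values over degrees of freedom were 60.9, 44.9 and 7.48 within BSG, highest for the pairs with BSG 1. Within M-BSG the values were 56.2, 32.8 and 8.27, highest for the pairs with M-BSG 1. Within NC the values ran from 3.37 to 9.91. The contrasts share the M-BSG-Hot libraries, so each is given on its own. With M-BSG-Hot 3, M-BSG 1 and BSG 1 all left out, 29 genes were higher and 246 lower than in M-BSG. Against BSG that fit gave 67 and 193. The set left out was chosen after seeing the data. Without M-BSG 1 alone the counts were 10 and 75 against M-BSG, and without BSG 1 alone 5 and 92 against BSG. How far replicate spread, rather than likeness of the groups, set the number of calls was not tested.

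SLCO5A1, a member of the organic anion transporter family, was higher in M-BSG-Hot than in each other group. It had 8.32, 6.98 and 6.46 CPM in M-BSG-Hot, 3.01, 2.98 and 3.30 in M-BSG, 2.77, 3.53 and 3.29 in BSG and 2.44, 2.73 and 3.00 in NC. The log2 fold changes were 1.23 over M-BSG (edgeR adjusted p = 0.00373), 1.18 over BSG (adjusted p = 0.00153) and 1.41 over NC (adjusted p = 7.45e-05). The M-BSG, BSG and NC libraries overlapped with one another. H2BC21 was higher than in M-BSG by 1.44 (edgeR adjusted p = 0.00478), at 5.72, 5.67 and 3.90 CPM there, and this call held with those 6 libraries alone. Against BSG, H2BC21 was not called. Of 24 replication histone genes 4 were higher than in M-BSG and 2 higher than in BSG, while 0.0974% of all genes were higher in each contrast. The list medians were 0.56 and 0.007, with 21 and 12 of 24 positive. How these list counts change under the alternatives was not tested. ID2 and RASD1 were higher than in M-BSG by 0.98 and 0.93, with ID2 at 23.1, 19.6 and 16.7 CPM in M-BSG and RASD1 at 7.91, 9.27 and 6.05 CPM. The ID2 call ended without M-BSG 3 (adjusted p = 0.0553), and that of RASD1 without M-BSG 1, M-BSG 3, M-BSG-Hot 2 or M-BSG-Hot 3 (0.0652, 0.197, 0.114 and 0.145) and with the 6 libraries alone (0.131). CXCR4, a chemokine receptor, was higher by 0.70 than in M-BSG (adjusted p = 0.00831, but 0.0687 with the 6 libraries alone).

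Several early genes that were above NC lay below M-BSG and BSG. FOSB had a log2 fold change of -1.52 over M-BSG (edgeR adjusted p = 0.00773) and -1.83 over BSG (adjusted p = 0.00153), with 80.5, 82.1 and 91.3 CPM in M-BSG and 92.9, 116 and 104 CPM in BSG. EGR1 had -1.34 over M-BSG (adjusted p = 0.00767) and -1.07 over BSG (adjusted p = 0.0214), with 272, 243 and 327 CPM in M-BSG and 204, 252 and 243 CPM in BSG. ZFP36 had -1.32 and -1.41 in the same contrasts. In all, 7 of 36 immediate-early genes were lower and 1 higher than in M-BSG, and 11 were lower than in BSG. Of all genes tested, 0.597% were lower and 0.0974% higher than in M-BSG, and 0.753% were lower than in BSG. With the 6 compared libraries alone, none of 35 was called against M-BSG by edgeR, with 4 higher and 13 lower at an unadjusted p under 0.05. There FOSB, EGR1 and ZFP36 had edgeR adjusted p of 0.0627, 0.0627 and 0.0536. Against BSG that setting gave 6 lower members. Over all genes it gave 3 higher and 7 lower of 14748 against M-BSG, and 60 lower of 14860 against BSG. DESeq2 on all libraries called 3 members higher and 9 lower against M-BSG, and 47 and 229 of all 15407 genes. Leaving out M-BSG 3 or M-BSG-Hot 1 left 4 lower members against M-BSG, and leaving out BSG 2, BSG 3, M-BSG-Hot 1 or M-BSG-Hot 3 left 4, 5, 7 and 7 lower against BSG. Over all genes those fits gave 22 and 27 lower against M-BSG, and 49, 62, 49 and 69 lower against BSG. The EGR1 call against BSG ended without BSG 2 or BSG 3 (adjusted p = 0.0697 and 0.08). Of 36 heat shock chaperones 1 was called lower than in M-BSG and 3 lower than in BSG, and none higher in either contrast. The list medians were -0.015 against M-BSG and -0.13 against BSG, with 15 and 6 of 36 positive. DNAJB1 was lower than in M-BSG (-0.50) and BSG (-0.66), with 148, 144 and 157 CPM in M-BSG and 163, 174 and 163 CPM in BSG. Its call against M-BSG ended without M-BSG 3 or M-BSG-Hot 1 (adjusted p = 0.0777 and 0.058) and with the 6 libraries alone (0.0689). HSPA1A was not called against either, at 0.33 and -0.48. KCNQ1OT1 was lower than in M-BSG (-1.83) and BSG (-1.38), and RASL11A, a Ras-like gene, had -1.46 and -2.02. The KCNQ1OT1 call against M-BSG ended without M-BSG 3 or M-BSG-Hot 1 (adjusted p = 0.0724 and 0.0823), and that against BSG without BSG 2, BSG 3 or any M-BSG-Hot library (0.0589 to 0.212). The survival gene MCL1 was lower than in both, at -0.51 and -0.41, with 741, 825 and 769 CPM in M-BSG-Hot. Its calls ended with the 6 libraries alone (adjusted p = 0.0719 against M-BSG and 0.17 against BSG), without M-BSG 3 or M-BSG-Hot 1 against M-BSG (0.0724 and 0.0562), and without BSG 2, BSG 3, M-BSG-Hot 1 or M-BSG-Hot 3 against BSG (0.0759, 0.11, 0.134 and 0.077). NEAT1 was not called against M-BSG (-0.25) or BSG (0.02), with 29.5, 22.9 and 26.3 CPM in M-BSG and 19.1, 20.3 and 25.7 CPM in BSG. Yet of 33 nuclear-retained and host long RNAs, 6 were lower than in M-BSG and 5 lower than in BSG, with medians of -0.22 and -0.32. Of 36 splicing genes, 8 were lower than in M-BSG and 4 lower than in BSG, with medians of -0.15 and -0.07. No member of either list was called higher. How these list counts change under the alternatives was not tested.

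**Figure D5:**
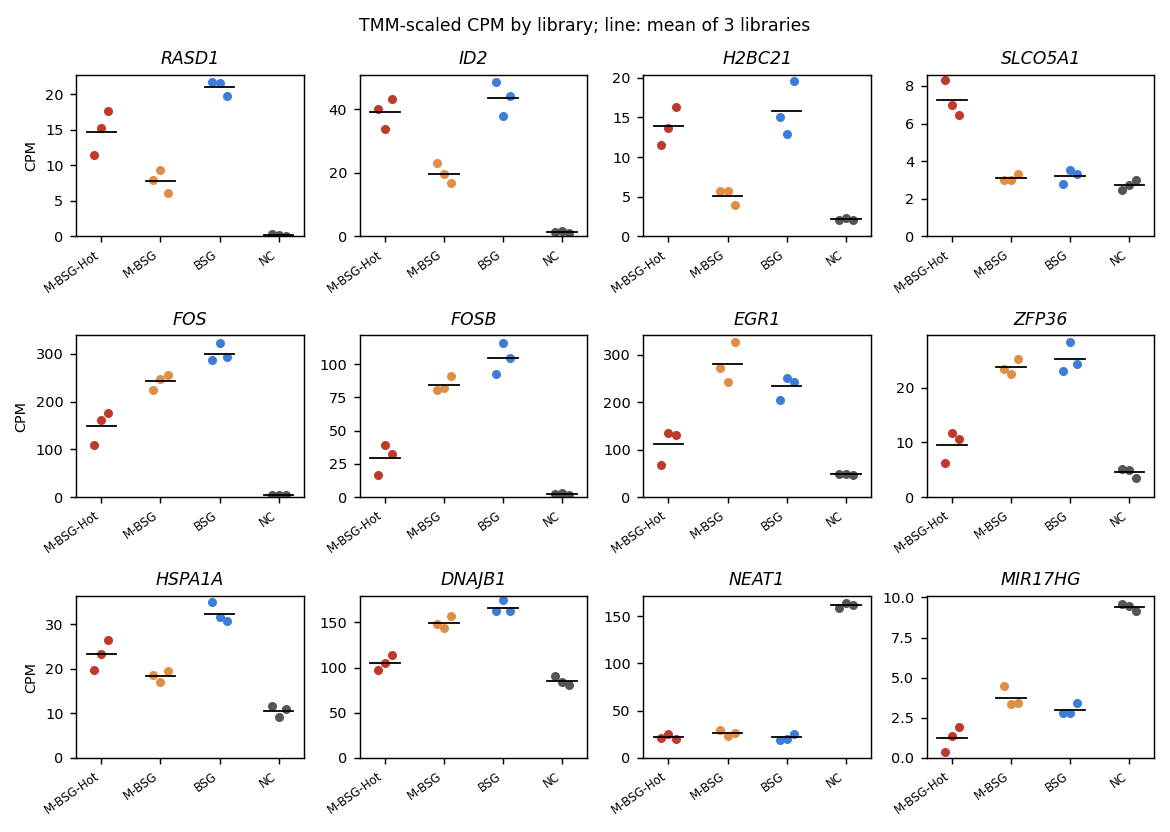
TMM-scaled CPM of 12 genes in M-BSG-Hot, M-BSG, BSG and NC, 3 libraries each, with a line at the group mean; the genes were chosen after their values were seen. SLCO5A1 is highest in M-BSG-Hot, FOS, FOSB, EGR1 and ZFP36 lie below M-BSG and BSG but above NC, and NEAT1 is lower in M-BSG-Hot, M-BSG and BSG than in NC.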

How the data were processed

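RNA of 143B cells was sequenced in 12 libraries, 3 for each of 4 groups; per the labels' protocols, libraries were made with the SMARTER kit for mRNA. For every library the authors deposited whole-number counts per gene symbol for 24180 symbols and FPKM values. The deposited FPKM are the same counts divided by gene length and library total, within a relative tolerance of 1e-06. The sources used here name no aligner, counting program or annotation and do not say how strand was used. GRCm38 and mm10, names of a mouse assembly, stand in the submitters' processing notes although the symbols are human, so coordinates are given only for RefSeq sequences (GRCh38.p14); 22776 symbols matched RefSeq directly, 276 by synonym and 1128 not at all.

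Counts were tested with edgeR 4.0.16 in R 4.3.3: TMM scaling, filterByExpr with a minimum count of 10, and 1 quasi-likelihood fit of all 12 libraries with a mean per group; Benjamini-Hochberg values cover all genes within a contrast. The SE is the absolute log2 fold change over the square root of F. With 3 libraries per group a permutation test cannot go below 0.1. The fit was tested on simulated data. Chi-square statistics per degree of freedom exceeded 1 in every replicate pair, so no library was merged.

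The 35 gene lists and the members described were chosen with earlier results of these data known. Genes are named as the 14 highest and 14 lowest called genes against NC (8 and 8 for the other contrasts) with at least 5 CPM and no overlap, up to 4 called members of each list by adjusted p, and 26 fixed genes; other members named were chosen after their values were seen. A few genes that these rules select are not reported here. Alternatives were RLE factors, library size only, other count minimums, DESeq2 1.42.0, limma-voom (limma 3.58.1), a replicate block, removal of the gene length trend, the 6 libraries alone and leaving libraries out.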

Additional observations from a re-analysis of the deposited data

How the results depend on the processing

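Against NC, 71 of 107 named called genes kept their call in every alternative of this tally in which they were tested. In at least 1 alternative 36 lost it, and none reversed. A gene that a filter removed was passed over there, not counted as lost. The fits without 1 BSG or M-BSG library are not part of this tally. Higher and lower counts were 215 and 541; DESeq2 gave 397 and 764, leaving out BSG 1 with M-BSG 1 and M-BSG-Hot 3 (a choice made after seeing the data) 451 and 862, removal of the length trend 786 and 626, and leaving out 1 NC or M-BSG-Hot library 103 to 173 and 285 to 371; leaving out 1 BSG or M-BSG library, tried after seeing the data, gave 173 to 304 and 466 to 654. Without BSG 1 more members were called higher in the splicing (5), cholesterol (4) and osteoblast (3) lists and lower in DNA repair (4). Against M-BSG the counts were 15 and 92: DESeq2 gave 47 and 229, length trend removal 48 and 149, the fit without those 3 libraries 29 and 246, the 6 libraries alone 3 and 7, a minimum count of 50 gave 9 higher, and leaving out 1 library gave 3 to 10 and 22 to 75; 39 of 45 named calls were lost with the 6 libraries alone. Against BSG the counts were 15 and 116: library size only gave 6 higher, no filter 25 higher, DESeq2 96 and 295, length trend removal 148 and 192, the fit without those 3 libraries 67 and 193, the 6 libraries alone 3 and 60, and leaving out 1 library 1 to 5 and 49 to 92; 27 of 51 named calls were lost with the 6 libraries alone. The cause of these shifts was not tested. Deviations of same-numbered M-BSG-Hot and NC libraries correlated at -0.104, 0.030 and -0.069, which shows no sign of pairing by replicate number. These values cannot exclude pairing, since deviations from a mean of 3 libraries are tied to one another, and the titles give only numbers. With the replicate block 203 genes were higher and 517 lower against NC. The share differences ranged from 0.219 to 1.35 points for ribosomal genes and 0.427 to 0.825 for the mitochondrial genome when 1 library was left out. Among named genes, sign changes occurred in uncalled ones: HSPH1 ran from -0.011 to 0.214 with 1 library left out (negative without M-BSG-Hot 1); TFRC was at -0.018 with library size only and ran from -0.126 to 0.173 with 1 library left out (negative without M-BSG-Hot 1 and, at -0.0012, without NC 1); MT1X was at -0.0043 with library size only, -0.0080 without those 3 libraries and from -0.011 to 0.175 with 1 left out (negative without NC 3); and COL1A1 was at 0.0070 with the length trend removed. Counts for gene lists and classes under alternatives were chosen after seeing the data. Genes with few counts, such as TNF, H1-5 and H3C2, are limited by depth.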

Other observations

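Within M-BSG-Hot, the genes with the widest range among those with at least 20 CPM were led by DDIT4, an inhibitor of mTORC1, with 47.6, 94.9 and 115 CPM in replicates 1, 2 and 3. PCK2, a mitochondrial enzyme of gluconeogenesis, had 135, 218 and 264 CPM, and ASS1, which makes argininosuccinate, had 31.7, 56.5 and 67.1 CPM. Highest in replicate 1 were SLC5A3 and VGLL3: SLC5A3, the inositol transporter, had 77.8, 52.6 and 34.2 CPM, and VGLL3 had 37.0, 29.3 and 18.8 CPM. FOSB and EGR1 were also among these 10 genes, both lowest in replicate 1. No label of these libraries says how the replicates differ.

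ACTA1, the skeletal muscle actin, had 36, 71 and 67 counts in M-BSG-Hot and 1, 4 and 0 counts in NC (log2 fold change 5.03, edgeR adjusted p = 0.000238), while DES averaged 0.0632 CPM in M-BSG-Hot and 0.134 CPM in NC. S100A14, a calcium-binding protein gene, had 2.07, 3.97 and 3.10 CPM in M-BSG-Hot against 0.170, 0.0519 and 0.0526 CPM in NC, and PYGM, the muscle glycogen phosphorylase, had 0.408, 1.13 and 2.47 CPM in M-BSG-Hot against 0.142, 0.0779 and 0.131 CPM in NC. For all 3 genes the M-BSG-Hot and NC libraries did not overlap. In the fit of all 12 libraries PYGM was called lower than in M-BSG, and S100A14 lower than in BSG. By lowest log2 fold change among the genes named in those contrasts they ranked 1 and 4. ACTA1 was not called against M-BSG (-0.23) or BSG (-0.37).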
